A study of Mus musculus with 12 samples.

Results

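The acute phase proteins examined here were 10 plasma proteins named by their genes, Saa1, Saa2, Saa3, Saa4, Orm1, Orm2, Lcn2, Hp, Hpx and Crp. They were chosen by symbol, and all 10 were found once each among the 52636 genes of the deposited table. All 10 also passed the filter on low values that left 16563 genes for testing, and no member was at 0 in any of the 12 libraries. The libraries were made from polyA RNA of mouse hepatocytes that had been isolated from fatty livers and sorted into cells of low and of high fat content, called the low-fat and high-fat fractions. Of the 6 mice, 3 were wild type (WT) and 3 carried a knockout (KO) of PTPRK, a receptor-type protein tyrosine phosphatase. A library was made from each fraction of every mouse, and each of the 4 groups held 3 libraries from 3 different mice. Low fat and high fat name fractions of cells, and every group, the controls included, came from a steatotic liver. The labels give no age, sex, strain or diet, and they do not say how the knockout was made or whether it was limited to a cell type.

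Acute phase proteins are plasma proteins whose output by the liver changes during infection and tissue injury. Cytokines of the Il6 family act through the receptor chain Il6st and the transcription factor STAT3, and Il1 and Tnf act through NF-kB. Both pathways work together with C/EBP factors on the promoters of these genes in hepatocytes. The members differ in what they carry. The serum amyloid A proteins Saa1 and Saa2 are the inducible apolipoproteins of high-density lipoprotein, Saa3 is a form also made outside the liver, and Saa4 is the constitutive form. Orm1 and Orm2 encode alpha-1-acid glycoproteins, which bind drugs and small lipophilic molecules. Lcn2 is a lipocalin that withholds iron from bacteria by binding their siderophores. Hp encodes haptoglobin, which captures free haemoglobin, and Hpx encodes hemopexin, which captures free heme. Crp encodes C-reactive protein, a pentraxin that is a major acute phase reactant in humans but only a weak one in mice.

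Upstream sequences are shown for 6 members, those that varied most between mice (Saa1, Saa2, Saa3 and Lcn2) and, of those that varied little, Hpx and Crp. The order of the members was graded, with Orm2 and Saa4 in between. RefSeq promoters on the build GRCm38.p6 were matched by symbol for 8 of the 10 members. The 250 bases before the start site lay at chr7:46742981-46743230, minus strand for Saa1 and at chr7:46751583-46751832, plus strand for Saa2. Those of Saa3 lay at chr7:46715677-46715926, minus strand, and those of Lcn2 at chr2:32387740-32387989, minus strand. The Hpx window was chr7:105600117-105600366, minus strand, and the Crp window was chr1:172697806-172698055, plus strand. Capitals mark the C/EBP octamer TTGCNNAA on either strand and, in Crp, the TATA box TATAAA. Each sequence runs 5′ to 3′ in the direction of transcription and ends at the base before the start site.
Saa1: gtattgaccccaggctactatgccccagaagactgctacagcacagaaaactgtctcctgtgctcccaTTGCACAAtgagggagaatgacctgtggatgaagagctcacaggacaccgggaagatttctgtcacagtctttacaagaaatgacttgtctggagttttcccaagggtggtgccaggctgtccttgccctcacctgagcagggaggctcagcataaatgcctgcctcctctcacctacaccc
Saa2: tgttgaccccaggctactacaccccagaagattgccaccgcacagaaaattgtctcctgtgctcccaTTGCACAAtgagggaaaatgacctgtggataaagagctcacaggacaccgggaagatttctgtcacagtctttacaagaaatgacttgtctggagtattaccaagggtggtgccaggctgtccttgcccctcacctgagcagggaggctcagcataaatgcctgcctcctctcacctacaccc
Saa3: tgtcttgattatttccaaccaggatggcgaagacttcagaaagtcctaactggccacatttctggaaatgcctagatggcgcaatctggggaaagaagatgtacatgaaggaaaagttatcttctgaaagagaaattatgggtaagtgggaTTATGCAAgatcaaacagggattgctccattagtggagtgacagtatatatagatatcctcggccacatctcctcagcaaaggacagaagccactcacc
Lcn2: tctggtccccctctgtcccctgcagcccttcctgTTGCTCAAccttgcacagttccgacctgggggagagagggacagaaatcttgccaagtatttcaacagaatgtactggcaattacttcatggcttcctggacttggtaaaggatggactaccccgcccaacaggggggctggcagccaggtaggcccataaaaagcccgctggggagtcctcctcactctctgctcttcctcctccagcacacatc
Hpx: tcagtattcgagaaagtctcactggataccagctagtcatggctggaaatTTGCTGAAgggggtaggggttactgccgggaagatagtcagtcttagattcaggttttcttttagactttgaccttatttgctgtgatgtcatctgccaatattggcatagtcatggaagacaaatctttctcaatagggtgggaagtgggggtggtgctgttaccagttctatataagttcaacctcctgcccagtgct
Crp: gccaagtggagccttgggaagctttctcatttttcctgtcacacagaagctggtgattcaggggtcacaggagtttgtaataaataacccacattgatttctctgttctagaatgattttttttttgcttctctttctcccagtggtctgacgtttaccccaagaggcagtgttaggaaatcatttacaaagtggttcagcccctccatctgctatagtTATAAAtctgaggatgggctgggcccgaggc

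The C/EBP octamer was present in 7 of the 8 matched members, that is, in all of them except Crp, against 9.56% of 32851 promoters of the same length. It started 182 bases before the start site in Saa1 and 183 bases before it in Saa2, with the same 8 letters TTGCACAA in both. In Saa3 it lay on the opposite strand, starting 99 bases before the start site, and in Lcn2 it started 216 bases before it. The windows of Saa1 and Saa2 matched at 238 of 249 aligned bases, or 95.58%, while Saa1 and Saa3 matched at 64.35%. The letters TTCNNNGAA, a STAT3 site that reads the same on both strands, were found in 0 of the 8 windows and in 7.02% of all promoters. The TATA box was found in the direction of transcription in Crp and Orm2, against 7.59% of all promoters, and overlapped no octamer. A match describes letters in a window and is no evidence of binding.

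Estimated depth was 15.08 to 25.02 M (mega) reads per library, and 3 reads corresponded to 2.398 to 3.979 reads per 20 M, the unit of the deposited values. Scaling factors between libraries lay between 0.928 and 1.085. The members together took 0.445% to 0.585% of the reads of a library. Ptprk, the targeted gene, was at 2788 ± 83.7 and 2407 ± 209 reads per 20 M in WT low-fat and high-fat libraries and at 1271 ± 135 and 1200 ± 19.3 in the KO libraries (SD, n = 3 each). Its log2 fold change was -1.13 in low-fat and -0.98 in high-fat libraries (limma adjusted p = 0.000982 and 0.00448). Summed over 10 hepatocyte markers, levels were 779532 to 949643 reads per 20 M. The high-fat libraries held more RNA of other liver cells: 9 Kupffer cell and macrophage markers summed to 450 to 1277 in the 6 low-fat libraries and to 1976 to 10671 in the 6 high-fat libraries. The highest of these sums, 10671 and 9307, were in the high-fat libraries of WT replicate 1 and KO replicate 1. In bulk samples, fewer cells of a type and less RNA per cell cannot be told apart.

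Per kb of transcript, the members covered a wide range of levels. Hpx was highest at a median of 33746 reads per 20 M per kb over 12 libraries, followed by Hp at 25454, Orm1 at 7567, Crp at 4192 and Saa4 at 2845. Saa1 stood at 2094, Saa2 at 788, Orm2 at 369, Saa3 at 286 and Lcn2 at 229 reads per 20 M per kb. Neighbours in this order kept their places in all 12 libraries, with 3 exceptions. Saa4 was above Saa1 in 9 of 12 libraries, Orm2 above Saa3 in 8 and Saa3 above Lcn2 in 7. The heme and haemoglobin scavengers stood above every other member in each library, and Saa3 and Lcn2 stood lowest by median.

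**Figure D1:**
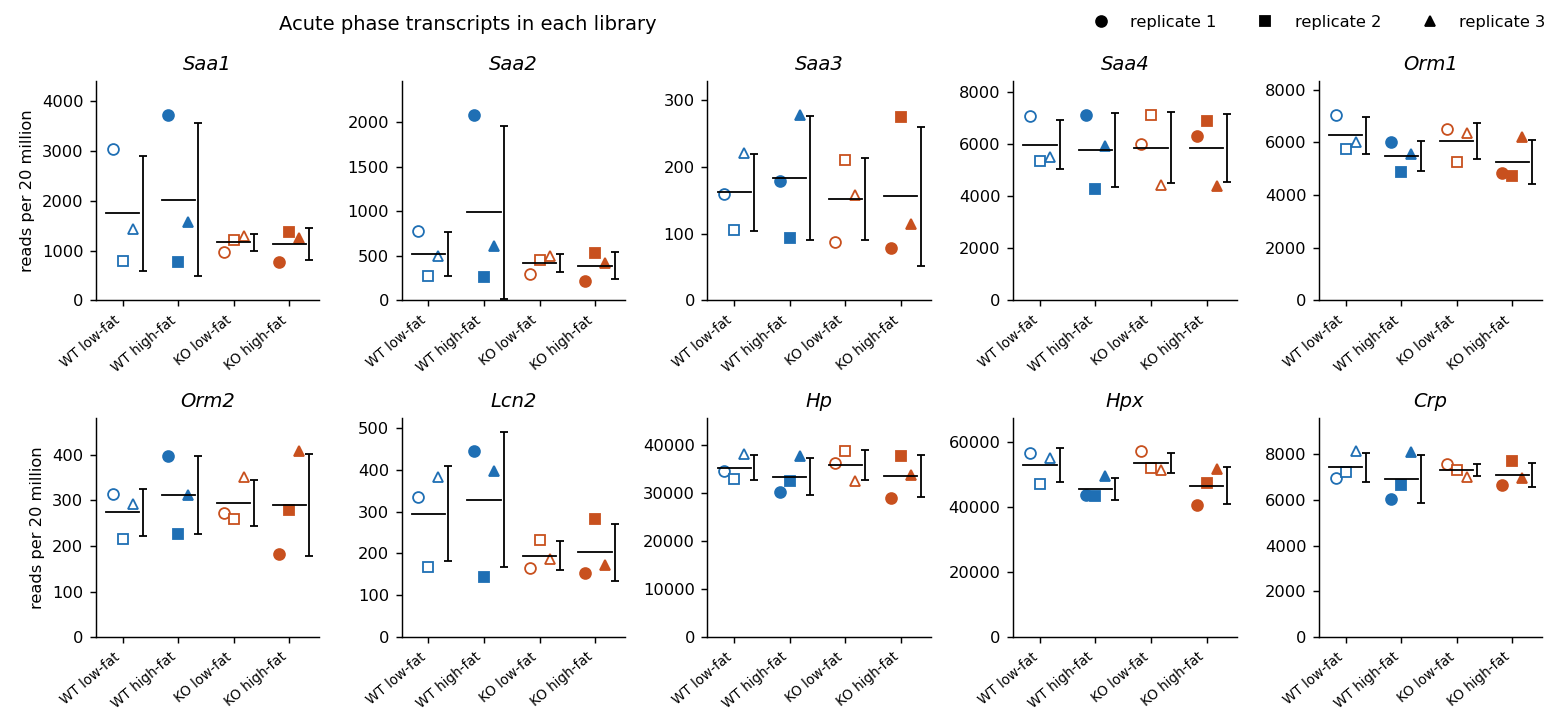
Deposited values (reads per 20 M, linear axis from 0) of the 10 members in each of 12 libraries, by genotype and fraction. Blue marks WT, orange marks KO, open symbols mark low-fat and filled symbols high-fat libraries, the marker shape gives the replicate, and lines and bars give the group mean and SD (n = 3). Saa1 and Saa2 in WT replicate 1 lie above all other libraries, while Hp, Hpx and Crp spread little.

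Among the serum amyloid A genes, Saa1 and Saa2 were set apart by a single mouse. Saa1 was at 3027, 793 and 1428 reads per 20 M in WT low-fat replicates 1 to 3 and at 3724, 770 and 1564 in the WT high-fat libraries of the same mice. In KO mice it was at 976, 1217 and 1293 in low-fat and at 770, 1372 and 1258 in high-fat libraries. WT replicate 1 was thus the highest in both fractions, WT replicate 2 was the lowest of the low-fat libraries, and the KO values lay inside the WT range or at its lower bound. Saa2 was at 781, 279 and 503 in WT low-fat and at 2085, 263 and 616 in WT high-fat libraries. Its KO values were 300, 457 and 498 in low-fat and 224, 528 and 422 in high-fat libraries. The ratio of Saa2 to Saa1 was 0.258 and 0.560 in the low-fat and high-fat libraries of WT replicate 1, the lowest and the highest of all, and 0.291 to 0.394 in the other 10 libraries. The transcripts of both genes are 94.39% identical, and 14.8% of 50-base windows of Saa1 and 13.3% of those of Saa2 occur in another gene's transcript, so the split of reads between them is uncertain. No 100-base window of either was shared.

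Saa3 was at 159, 106 and 220 reads per 20 M in WT low-fat and at 179, 93 and 278 in WT high-fat libraries. In KO libraries it was at 88, 210 and 158 in low-fat and at 79, 274 and 115 in high-fat libraries. The order of the mice was the same in both fractions of each genotype, and each genotype had mice both above 200 and below 110. Saa4, the constitutive form, was at 7054, 5337 and 5509 in WT low-fat, 7107, 4279 and 5919 in WT high-fat, 5994, 7120 and 4421 in KO low-fat and 6299, 6854 and 4367 in KO high-fat libraries. Its genotypes overlapped in both fractions.

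Lcn2 was at 334, 168 and 383 reads per 20 M in WT low-fat and at 444, 144 and 397 in WT high-fat libraries. In KO libraries it was at 166, 233 and 186 in low-fat libraries. In KO high-fat libraries it was at 281 in replicate 2 and 172 in replicate 3, and replicate 1 was the lowest (202 ± 68.7, SD, n = 3). WT replicates 1 and 3 were above every KO library in both fractions, and WT replicate 2 was inside or below the KO range. Lcn2 is also made by neutrophils. The 12 neutrophil markers summed to between 13 and 160 reads per 20 M per library, and 1 of them passed the filter, Csf3r, the receptor for granulocyte colony-stimulating factor, at 3 to 90. S100a9, S100a8 and Cxcr2 reached at most 18, 17 and 13, Ltf and Ngp 9 and Elane 8, while Mpo, Camp and Ly6g reached at most 5, 3 and 4. The highest neutrophil sums, 160 and 153, were in KO low-fat replicate 2 and WT high-fat replicate 1, and their part in the Lcn2 values was not tested.

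Orm1 was at 7058, 5733 and 5996 reads per 20 M in WT low-fat and at 6026, 4884 and 5566 in WT high-fat libraries. In KO libraries it was at 6517, 5258 and 6361 in low-fat and at 4830, 4715 and 6219 in high-fat libraries. Every mouse had the lower value in its high-fat library. Orm2 was at 314, 216 and 293 in WT low-fat, 398, 226 and 313 in WT high-fat, 273, 259 and 351 in KO low-fat and 183, 279 and 408 in KO high-fat libraries, with all groups overlapping. The Orm1 and Orm2 transcripts are 90.97% identical, and 6.95% of 100-base windows of each occur in the other, so reads of Orm1 could weigh on the much lower Orm2.

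Hp was at 34623, 32992 and 38069 reads per 20 M in WT low-fat and at 30215, 32447 and 37640 in WT high-fat libraries. Its KO values were 36288, 38703 and 32472 in low-fat and 29048, 37765 and 33847 in high-fat libraries. Both genotypes covered nearly the same range. Hpx was at 56726, 47095 and 55246 in WT low-fat and at 43629, 43544 and 49706 in WT high-fat libraries. Its KO values were 57253, 52032 and 51466 in low-fat and 40686, 47550 and 51842 in high-fat libraries. The high-fat values were mostly lower, but KO replicate 3 differed little between its fractions. Crp was at 6939, 7195 and 8122 in WT low-fat and at 6052, 6636 and 8083 in WT high-fat libraries, and at 7574, 7315 and 7016 in KO low-fat and 6654, 7683 and 6957 in KO high-fat libraries.

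The spread between mice differed among the members in a graded order. After rescaling, the highest and the lowest mouse differed 4.85-fold for Saa2, 4.39-fold for Saa1, 3.02-fold for Saa3 and 2.66-fold for Lcn2, each mouse taken as the mean log2 level of its 2 libraries. The same ratio was 1.82 for Orm2 and 1.54 for Saa4, and it was 1.24 to 1.31 for Orm1, Crp, Hp and Hpx. The SD between mice of Saa2, Saa1, Saa3 and Lcn2 stood at the 98.0, 96.9, 94.7 and 93.6 percentile of all genes tested. That of Hpx, Hp, Crp and Orm1 stood between the 24.1 and 45.9 percentile, and that of Orm2 and Saa4 at the 74.6 and 66.3 percentile. These percentiles describe the 6 mice and were not tested. The widest of these ranges rested on WT replicate 1: without that mouse the ratio was 2.21 for Saa2 and 2.04 for Saa1, nearer to Orm2 at 1.82 than before, and the percentiles were 90.7 and 84.9. The ratios of Saa3 and Lcn2 were 3.02 and 2.66 without it too. WT mice held both ends of the range for Saa1, Lcn2, Hp and Hpx, with WT replicate 2 the lowest in each, and for Crp, with WT replicate 1 the lowest.

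The comparison of KO with WT asks whether loss of PTPRK went with a different acute phase output in cells of the same fat content. No member was called in low-fat libraries at a limma adjusted p under 0.05, where 0.00604% of all genes (1 gene, Ptprk) were called. No member was called in high-fat libraries either, where the share was again 0.00604%. At an unadjusted p under 0.05 there were 0 of 10 members in both fractions, against 1.64% of all genes in low-fat and 1.97% in high-fat libraries. The WT and KO libraries of each member overlapped in both fractions, while 5.44% and 4.92% of all genes did not overlap. The median log2 fold change of the members was -0.04 in low-fat and -0.08 in high-fat libraries, against 0.00104 and 0.00311 for all genes tested. In low-fat libraries 8 of 8 endothelial, 9 of 9 Kupffer cell and macrophage and 7 of 8 stellate markers had estimates below 0. Their medians were -0.68, -0.79 and -0.47, none was called, and 49.6% of all genes were below 0. All KO libraries lay below all WT libraries for 6, 3 and 0 of these markers, against 2.8% of all genes. At an unadjusted limma p under 0.05 there were 3, 0 and 0, against 1.64%. In high-fat libraries 8 of 8, 7 of 9 and 4 of 8 had estimates below 0, with medians of -0.41, -0.10 and 0.03, against 49.1%. There, 0 markers of these lists lay apart by genotype. The part of these cells in the member estimates was not tested.

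The intervals of these differences were of very different widths. Hp differed by 0.03 in log2 units in low-fat libraries (95% interval -0.33 to 0.40) and by 0.03 in high-fat libraries (-0.34 to 0.39). Hpx differed by 0.03 (-0.35 to 0.41) and 0.05 (-0.33 to 0.43), and Crp by -0.01 (-0.32 to 0.30) and 0.07 (-0.24 to 0.38). The intervals of these 3 genes were the narrowest among the members together with those of Orm1. Orm1 differed by -0.04 (-0.40 to 0.32) and -0.05 (-0.41 to 0.31), and Saa4 by -0.03 (-0.53 to 0.46) and 0.04 (-0.45 to 0.54).

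Lcn2 had the lowest estimate among members in low-fat libraries at -0.51 (95% interval -1.46 to 0.44) and was at -0.56 (-1.51 to 0.39) in high-fat libraries. Saa1 was at -0.37 (-1.58 to 0.83) and -0.56 (-1.76 to 0.64). Saa2 was at -0.22 (-1.60 to 1.17) and -0.89 (-2.28 to 0.49). These intervals reach well to both sides of 0, and neither direction can be stated at this spread between mice. Without both libraries of WT replicate 1 and KO replicate 1, Saa1 stood at 0.22 in low-fat and 0.31 in high-fat libraries and Saa2 at 0.33 and 0.28, the opposite side of 0. Exact two-sided permutation tests of the 3 KO against the 3 WT mice, on the mean of both fractions, gave p = 0.5 for Saa1, p = 0.4 for Saa2 and p = 0.4 for Lcn2, where the smallest possible is 0.1. Saa3 was at -0.10 and -0.27 and Orm2 at 0.12 and -0.12 in the 2 fractions.

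**Figure D2:**
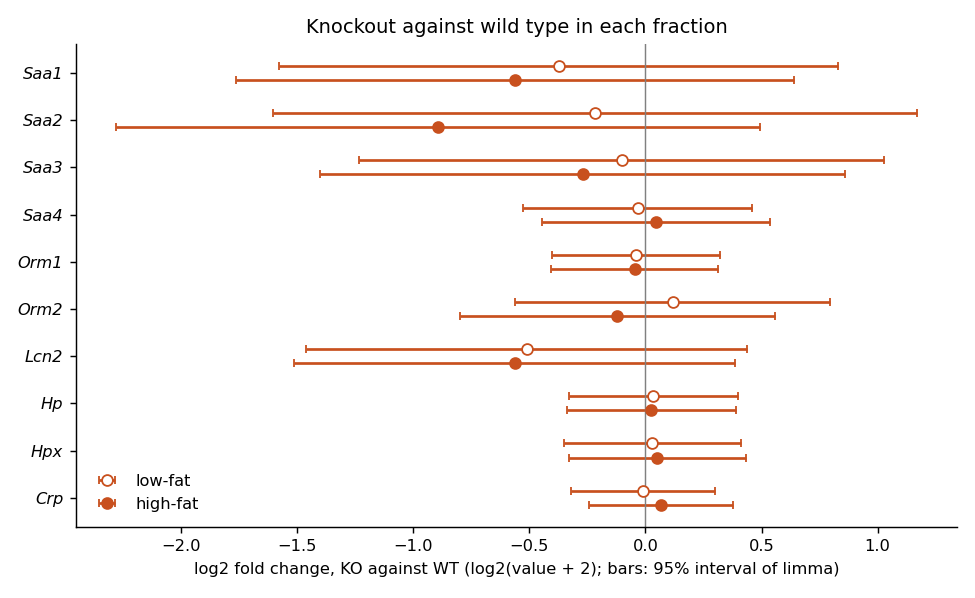
Log2 fold change of each member in KO against WT hepatocytes, on the log2(value + 2) scale, in low-fat (open) and high-fat (filled) libraries. Points are limma estimates over 3 WT and 3 KO libraries and bars their 95% intervals: every interval includes 0, and those of Saa1, Saa2, Saa3 and Lcn2 are the widest.

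Between high-fat and low-fat cells of the same mouse, Orm1 and Hpx had the estimates farthest from 0 among the members. Orm1 was lower in the high-fat library in 6 of 6 mice, by 0.36, 0.24 and 0.21 log2 units in WT replicates 1 to 3 and by 0.66, 0.15 and 0.03 in the KO replicates. Hpx was lower in 5 of 6 mice, with differences of -0.51, -0.12 and -0.25 in WT and -0.72, -0.12 and 0.02 in KO mice. Over both genotypes the limma estimate was -0.27 for Orm1 (SE 0.117, adjusted p = 0.229) and -0.28 for Hpx (SE 0.123, adjusted p = 0.235). With a term for each mouse the adjusted p of Orm1 was 0.0748, and that of Hpx was 0.177. Neither gene was called. An exact two-sided sign-flip permutation test over the 6 mice gave p = 0.0312 for Orm1, the smallest it can give, and p = 0.0625 for Hpx, with no adjustment.

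The other members had estimates closer to 0. After rescaling, Hp was lower in high-fat libraries in 5 of 6 mice at -0.16 (SE 0.117) and Crp in 5 of 6 at -0.15 (SE 0.1). Saa4 was lower in 5 of 6 at -0.11 (SE 0.159), again after rescaling. Its deposited values rose in WT replicate 1 (7054 to 7107), WT replicate 3 (5509 to 5919) and KO replicate 1 (5994 to 6299). The SEs given are of the fit without a term for each mouse. With that term they were 0.107, 0.0767 and 0.0608. Saa1 and Saa3 were higher in 3 mice and lower in 3, with estimates of -0.05 and -0.06. Orm2 was higher in 4 of 6 mice and Lcn2 in 2 of 6, both with estimates of -0.03. Saa2 was at 0.12, and in WT replicate 1 it was 2.44-fold higher in the high-fat library after rescaling. With the deposited scaling alone the estimates of Saa1, Saa3, Orm2 and Lcn2 stood on the other side of 0, at 0.03, 0.02, 0.04 and 0.05.

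**Figure D3:**
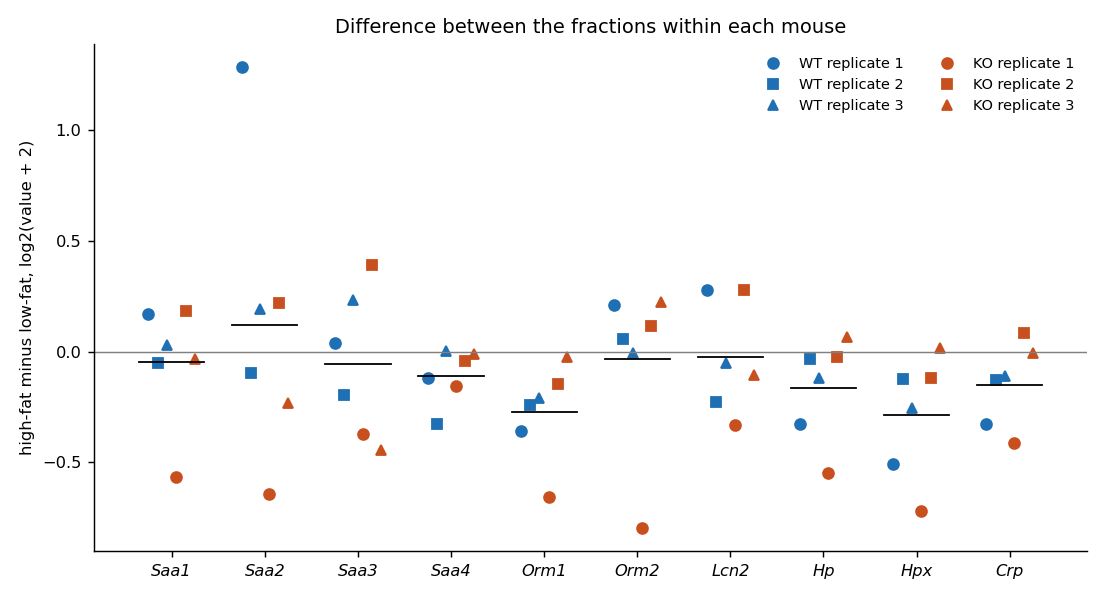
High-fat minus low-fat difference on the log2(value + 2) scale for each member, with 1 point per mouse (blue WT, orange KO, marker shape for the replicate) and a line at the mean of 6 mice. All 6 points of Orm1 lie below 0, and KO replicate 1 is the lowest point for 8 of the 10 members.

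No member was called between the fractions in any fit. In WT mice 0 of 10 members were called, as were 0% of all genes (1.02% with the mouse term). Orm1, Hp, Hpx and Crp, 4 of the 10, were lower in all 3 WT mice, against 31.8% of all genes. In KO mice 0 of 10 were called, against 0.894% of all genes (2.14% with the mouse term). After rescaling, Orm1 and Saa4 were lower in all 3 KO mice, against 17.7% of all genes. The deposited Saa4 value of KO replicate 1 was higher in its high-fat library. Over both genotypes 0 of 10 members were called, against 5.76% of all genes (10.5% with the mouse term). At an unadjusted limma p under 0.05 there were 2 members, Orm1 and Hpx, against 18.9% of all genes. Of the members, 9 of 10 had an estimate below 0, against 58.6% of all genes, and 1 of 10 was lower in all 6 mice, against 11.7%. The count of estimates below 0 depends on the scaling: with the deposited scaling alone Saa1, Saa3, Orm2 and Lcn2 were above 0. The members are also correlated, so they are not independent genes. The counts of members called and of members lower in all 6 mice lay near the background. The median estimate of the members was -0.08, against -0.04 over all genes tested.

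Markers of other cells moved with the fraction. Over both genotypes 7 of 9 Kupffer cell and macrophage markers, 8 of 8 endothelial and 8 of 8 stellate markers were called higher in high-fat libraries, with median log2 fold changes of 2.23, 1.78 and 2.56. Of 10 hepatocyte markers 8 had estimates below 0, with a median of -0.16, but none of these was called, and the 1 called was higher: Cyp2e1, a cytochrome P450 of pericentral hepatocytes (0.71, limma adjusted p = 0.0252). With the mouse term Hnf4a, a hepatocyte transcription factor, was also called, lower (-0.30, adjusted p = 0.0419). The macrophage sum of WT replicate 1 went from 966 in low-fat to 10671 in high-fat cells, and that of KO replicate 1 from 450 to 9307. The high-fat libraries of the other 4 mice lay between 1976 and 2214. These 2 mice also had the largest falls of Orm1, Hp, Hpx and Crp. Without both of them the estimate over both genotypes was -0.16 for Orm1, -0.12 for Hpx, -0.03 for Hp and -0.04 for Crp (adjusted p = 0.801, 0.855, 0.964 and 0.943). The part of other cells' RNA in these differences was not tested.

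The interaction asks whether the difference between fractions itself differed between genotypes. None of the 10 members was called, as was 0% of all genes, and 0 of 10 had an unadjusted p under 0.05 against 0.145% of all genes. The interaction estimate of Orm1 was -0.01 (95% interval -0.52 to 0.50), and Hpx was at 0.02 (-0.52 to 0.56). The estimate farthest from 0 was that of Saa2 at -0.68 (-2.64 to 1.28), which was -0.05 without WT replicate 1 and KO replicate 1. The intervals given here are of the fit without a term for each mouse. With that term the SE of Saa2 was 0.351 instead of 0.897 and that of Orm1 0.168 instead of 0.233. For Hpx it was 0.249 instead of 0.246. None of the 10 members was called with that term either.

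Some members resembled each other closely. Over the 12 libraries, which share mice in pairs and so are fewer independent points, Pearson's r was 0.954 between Saa1 and Saa2, 0.832 between Saa1 and Lcn2, 0.833 between Saa2 and Lcn2 and 0.817 between Saa3 and Lcn2. Values were also high for Hp with Crp (0.923), Hp with Hpx (0.851), Hpx with Orm1 (0.835) and Hpx with Crp (0.805). These pairs did not form separate blocks. Saa3 with Hp (0.602) and Saa1 with Orm1 (0.498) were above Orm1 with Hp (0.457) and Orm1 with Crp (0.441), and the lowest values were -0.03 for Saa1 with Crp and -0.12 for Saa2 with Crp. Saa4 reached at most 0.595, with Lcn2. Over the 6 mouse means Saa1 and Saa2 gave 0.993, Hp and Crp 0.899, Saa3 and Hp 0.850 and Saa1 and Orm1 0.641, while Hpx and Orm1 gave 0.614, Orm1 and Hp -0.14 and Orm1 and Crp -0.06. Reads shared by the near-identical transcripts can raise the value for Saa1 with Saa2. The coefficients are descriptions, without a test.

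**Figure D4:**
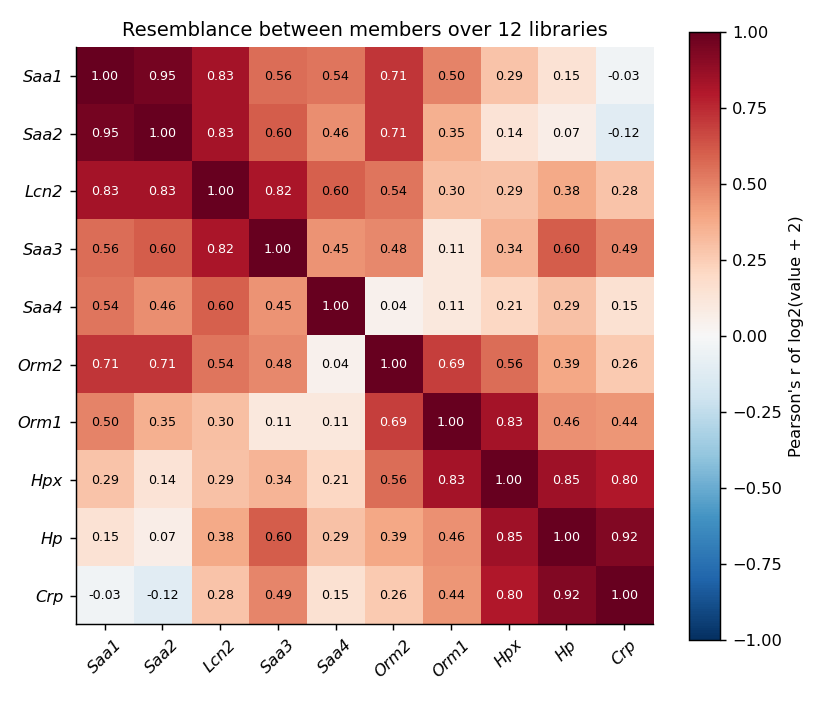
Pearson's r of log2(value + 2) between members over 12 libraries from 6 mice, on a colour scale from -1 (blue) to 1 (red). The highest values are 0.954 for Saa1 with Saa2 and 0.923 for Hp with Crp, and Crp with Saa2 is the lowest at -0.12.

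Among 10507 other genes with mean levels no lower than 100 reads per 20 M, those most like each member were mostly different genes. Hpx was most like Vtn, Gc and Ambp, which encode the plasma proteins vitronectin, vitamin D binding protein and the alpha-1-microglobulin and bikunin precursor (r = 0.982, 0.980 and 0.973). Hp was most like Cyp2d26 (0.951), Orm1 like Qprt (0.961) and Crp like Kbtbd7 (0.966). Saa4 was most like Manf and Hspa5, both known for their part in protein folding in the endoplasmic reticulum (0.966 and 0.959). Saa1 was most like Snx10 (0.928) and Steap4 (0.921), a metalloreductase gene that is itself induced in inflammation. As for Saa1, the libraries of WT replicate 1 were the highest for Steap4, at 3773 and 3720 reads per 20 M against at most 2526 elsewhere. Lcn2 was most like Casp8 (0.921) and Rnf144b (0.917), and Saa3 most like the same Rnf144b (0.915). Saa2 was most like Mcm10 (0.913) and Orm2 like Eef1e1 (0.904). The mean standardised level of all 10 members was most like Rpl3 (0.975). These coefficients were picked as the highest among 10507 genes over libraries from 6 mice, and none was tested.

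Other positive acute phase genes, whose output rises in inflammation, were mostly at lower estimates in the high-fat fraction. Of 20 such genes, 17 had estimates below 0 in high-fat against low-fat libraries over both genotypes, against 58.6% of all genes. The median was -0.24. Of the 20 genes 1 was called, lower, against 5.76% of all genes called either way. This was Itih3, an inter-alpha-trypsin inhibitor heavy chain, at 20882, 20552 and 20020 reads per 20 M in WT low-fat, 18333, 16840 and 17134 in WT high-fat, 17764, 22360 and 19094 in KO low-fat and 15089, 16389 and 17146 in KO high-fat libraries. Its fractions did not overlap in WT or in KO mice. Its log2 fold change was -0.33 (limma adjusted p = 0.033), but it was called in only 6 of 26 other settings. With the mouse term Serpina3n, a serine protease inhibitor, was also called lower (-0.32, adjusted p = 0.0342) and Orm3, the lowest of the Orm genes, higher (0.63, adjusted p = 0.0216). With that term 10.5% of all genes were called. The fibrinogen chains Fga, Fgb and Fgg were at -0.25, -0.24 and -0.24, ceruloplasmin (Cp) at -0.27 and complement C3 at -0.28, and none of these passed.

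Negative acute phase genes, whose plasma proteins fall in inflammation, were not called in any comparison. All 8 had estimates below 0 in high-fat libraries over both genotypes, with a median of -0.13, as the positive genes and the hepatocyte markers mostly did. Of all genes 58.6% were below 0. In KO against WT all 8 had estimates above 0, with medians of 0.10 in low-fat and 0.11 in high-fat libraries. So did 9 and 10 of the 10 hepatocyte markers, with medians of 0.07 and 0.10, against 50.4% and 50.9% of all genes. Albumin (Alb), Ttr and Apoa1 are in both lists, so the counts of the lists are not independent. Alb and transferrin (Trf) were at -0.17 and -0.17 between the fractions. Serpina6, the gene of corticosteroid-binding globulin, was chosen after its values were seen. It was at 2274, 3335 and 2929 reads per 20 M in WT low-fat, 2144, 3047 and 3019 in WT high-fat, 2757, 5352 and 5284 in KO low-fat and 3002, 5573 and 5235 in KO high-fat libraries. KO replicates 2 and 3 lay above every WT library, and KO replicate 1 lay within the WT range. Its log2 fold change was 0.61 in low-fat and 0.74 in high-fat libraries, with unadjusted limma p of 0.0617 and 0.0293, and it was not called. With a term for the replicate number the limma adjusted p was 0.282 and 0.153.

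Of 25 genes of acute phase signalling, none was called between KO and WT. Between the fractions over both genotypes 1 was called, against 5.76% of all genes. This was Osmr, the receptor chain for oncostatin M, at 22, 25 and 29 reads per 20 M in WT low-fat, 141, 47 and 74 in WT high-fat, 11, 18 and 19 in KO low-fat and 104, 60 and 31 in KO high-fat libraries. It was higher in high-fat libraries by 1.60 in log2 units (limma adjusted p = 0.00985), and it was not called without KO replicate 1 (1.32, adjusted p = 0.0574) or without replicate 1 of both genotypes (1.09, adjusted p = 0.101). With the mouse term Cebpd and Lifr were called higher too (0.45 and 0.21) and Stat3 and Rela lower (-0.30 and -0.19), the latter being the factors that carry the Il6 and NF-kB signals. With that term 10.5% of all genes were called. Stat3 had limma adjusted p of 0.195 without that term and 0.0113 with it. The Il6 receptor genes Il6ra and Il6st were at -0.15 and 0.07 and Socs3, a feedback inhibitor of this pathway, at -0.15.

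Cytokine transcripts were scarce. Of 8 cytokine genes 2 passed the filter, Il1a and Il1b, Il22 was at 0 in all libraries, and Il6 and Tnf reached at most 2 and 7 reads per 20 M. Il1a was at 23, 42 and 21 reads per 20 M in WT low-fat, 98, 69 and 46 in WT high-fat, 12, 31 and 24 in KO low-fat and 79, 41 and 30 in KO high-fat libraries. It was called higher in high-fat libraries (1.09, limma adjusted p = 0.0437), a call that held in 9 of 26 other settings. Il1b was at 0.80 and was not called (adjusted p = 0.558).

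Of 7 tested genes that receive or clear the members and their cargo, 2 were called higher in high-fat libraries, Cd163 and Hmox1. Of all genes 5.76% were called either way. Cd163, the macrophage receptor for haptoglobin and haemoglobin complexes, was at 43, 47 and 27 reads per 20 M in WT low-fat, 656, 125 and 107 in WT high-fat, 9, 34 and 19 in KO low-fat and 432, 138 and 84 in KO high-fat libraries. All high-fat libraries lay above all low-fat libraries, and the highest were those of WT replicate 1 and KO replicate 1, as for the macrophage sums. Its log2 fold change was 2.67 (limma adjusted p = 0.00877), and it was called in all 26 other settings. Hmox1, the heme oxygenase that degrades heme, rose by 1.31 (adjusted p = 0.0471), in 7 of 26 other settings. Lrp1, the hepatic receptor for hemopexin and heme complexes, was at 28295 to 64721 reads per 20 M and did not pass the test (0.20, adjusted p = 0.743). With the mouse term Fcgr1 (1.82) and Slc22a17 (1.38), a receptor for Lcn2, were called higher, and Scarb1 (-0.21), the receptor for high-density lipoprotein, lower. Of the 7 genes tested, 4 were called higher and 1 lower with that term, against 10.5% of all genes. Fcgr1 was at 3 to 110 and Slc22a17 at 1 to 33 reads per 20 M, and they were called in 3 and 5 of 26 other settings. Fcgr1, Slc22a17 and Hmox1 were also highest in the high-fat libraries of WT replicate 1 and KO replicate 1.

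**Figure D5:**
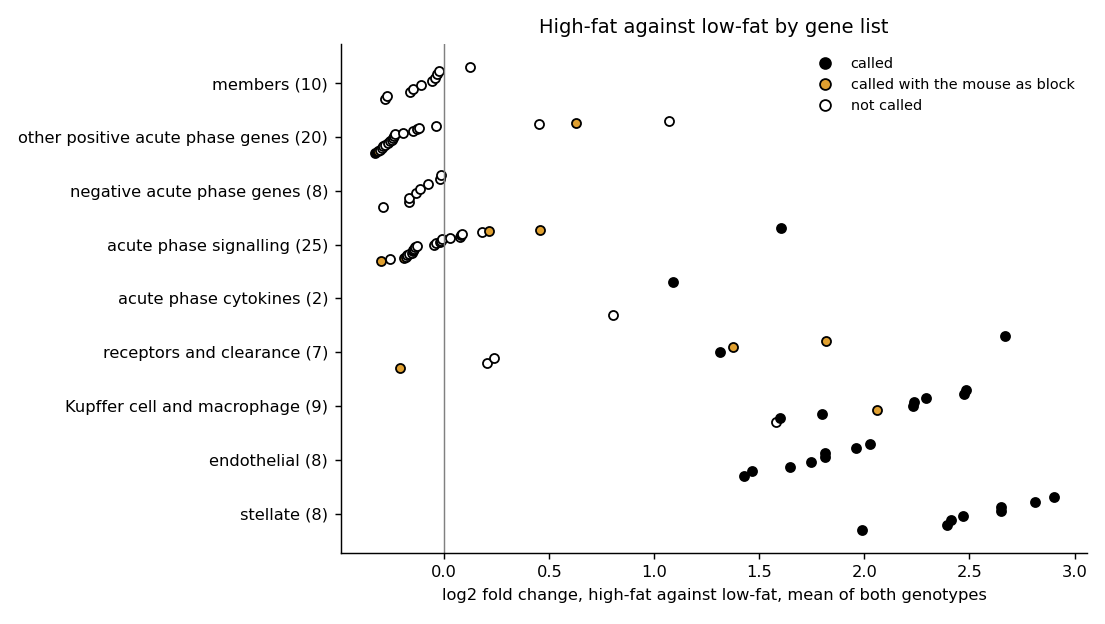
Log2 fold change between the fractions, high-fat over low-fat, in both genotypes together (6 mice, 12 libraries) for each gene tested, by list, with the number of genes tested in brackets. Filled points were called by limma, amber points only with a term for each mouse, and open points not; the members lie between -0.28 and 0.12, and the endothelial and stellate markers all lie at 1.43 or above.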

How the data were processed

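The deposited unit is treated as a score, because the authors had scaled the reads of each gene to a library total of 20 M and rounded up, as the column sums and the steps of low values show. The submitters' processing notes name the build mm9, and an aligner, a read counter, a strand setting and an annotation are not given in the sources used here. Depth was estimated from the steps of the scaled values, with an error of up to 4.167% on 7 simulated libraries, and bounds from it cover counting error only. The values are not raw counts, so no count model was used.

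Genes reaching 10 reads per 20 M in 3 or more libraries were kept, and values were rescaled by the trimmed mean of M values (trimming 30% of ratios and 5% of levels) and taken as log2(value + 2). On this scale the change of low genes is understated. limma 3.58.1 in R 4.3.3 fitted 4 group means over 12 libraries and let the variance depend on the level. Two-sided p-values were adjusted by the Benjamini-Hochberg method across the 16563 genes, with calls made under 0.05. The scripts were tested on simulated data. There were 6 comparisons.

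The labels give both fractions of a replicate the same mouse name, and the pairing rests on that name. Deviations from the group means of the 3 pairs correlated at 0.471 to 0.581 in WT and at -0.012 to 0.458 in KO. Fractions of different mice correlated at -0.474 to -0.044 in WT and at -0.433 to 0.280 in KO. The KO ranges overlap, so these values do not set the KO pairs apart. Same-numbered WT and KO mice are different animals, whose low-fat libraries correlated at 0.252 to 0.397 and whose high-fat libraries correlated at -0.173 to 0.490. A second fit therefore held a replicate block, a term per mouse between fractions and per replicate number between genotypes. Replicates are different mice, and p-values of the first fit measure the spread between them, also in comparisons of the fractions. With the term per mouse, p-values between fractions measure the spread of the differences within mice.

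The members and gene lists were chosen with earlier results of these data known. Named genes were Ptprk, the 10 members, up to 3 called genes each way per list and comparison, otherwise up to 6 genes with the highest levels per list, and the 3 genes most like each member by Pearson's r over 12 libraries. Alternatives were another scaling, pseudocount and filter, the block, a correlation between libraries of a mouse, a fit of only the libraries compared, and leaving out libraries. Leaving out both libraries of a mouse was chosen after seeing the data. Outside the rule, and with their values seen, Il6ra, Il6st, Socs3, Il6, Tnf, Il22, Il1b, Lrp1, Fga, Fgb, Fgg, Cp, C3, Serpina6 and single cell type markers were named too. Orm1 and Hp had no promoter entry. Transcripts for lengths and identity came from GENCODE M21.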

Additional observations from a re-analysis of the deposited data

Results flagged for a closer look

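KO replicate 1 stood apart from the other 5 mice in the difference between its fractions for 2 members. Its high-fat minus low-fat difference was -0.57 log2 units for Saa1 and -0.80 for Orm2, and the gap to the next mouse took 0.685 and 0.775 of the whole range of the 6 mice, above Dixon's critical value at 95%. Chance gives about 1 such gap in 20 groups, and 10 groups of 6 mice were examined. The same mouse had the lowest difference for Saa2 (-0.64), Orm1 (-0.66), Lcn2 (-0.33), Hp (-0.55), Hpx (-0.72) and Crp (-0.41), without passing this value. Its macrophage markers summed to 450 reads per 20 M in low-fat and to 9307 in high-fat cells. The part of these markers in the differences was not tested.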

How the results depend on the processing

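No member was called in any of the 6 comparisons under any of 1360 alternatives to their 60 log2 fold changes, and the lowest adjusted p was 0.0748 (Orm1 between fractions over both genotypes, limma with the replicate block). The estimates of Orm1, Hpx, Hp, Crp and Saa4 between the fractions over both genotypes stayed below 0 in all 26 alternatives, and Lcn2 in KO against WT stayed below 0 in all 21 of each fraction. Directions reversed in 212 of the 1360 alternatives, 204 of them on leaving out libraries or mice.

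The replicate block changed no call of a member. With it, genes called between the fractions went from 0 to 169 in WT, from 148 to 354 in KO and from 954 to 1731 over both genotypes, and with a same-mouse correlation to 383, 528 and 1913. A pseudocount of 10 gave 1 gene in WT. A fit of only the libraries compared gave 0 genes in KO against WT, high-fat (221 at an unadjusted limma p under 0.05) and 0 between the fractions of KO (1386 unadjusted). Lcn2 was at -8.92e-05 between the fractions of WT, an estimate too small to give a direction. It changed sign to 0.018 with medians of ratios, 0.080 with the deposited scaling alone and 0.0022 with a pseudocount of 10. With the deposited scaling alone Lcn2 stood at 0.017 between the fractions of KO, and Saa1, Saa3, Orm2 and Lcn2 at 0.030, 0.016, 0.042 and 0.048 over both genotypes. The causes were not tested.

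Leaving out libraries or mice gave 0 to 3 called genes in KO against WT, low-fat, 0 to 2 in high-fat, 0 to 137 between the fractions of WT, 0 to 242 of KO and 348 to 1125 over both genotypes (199, 181, 755, 800 and 1703 or more genes at an unadjusted limma p under 0.05). The members whose direction changed had these ranges of log2 fold change. In KO against WT, low-fat libraries, they ran from -0.88 to 0.22 for Saa1, from -0.64 to 0.33 for Saa2, from -0.41 to 0.24 for Saa3, from -0.16 to 0.16 for Saa4, from -0.14 to 0.088 for Orm1, from -0.084 to 0.25 for Orm2, from -0.051 to 0.12 for Hp, from -0.093 to 0.093 for Hpx and from -0.11 to 0.090 for Crp. In KO against WT, high-fat libraries, they ran from -1.11 to 0.31 for Saa1, from -1.60 to 0.28 for Saa2, from -0.78 to 0.19 for Saa3, from -0.16 to 0.21 for Saa4, from -0.21 to 0.11 for Orm1, from -0.44 to 0.39 for Orm2, from -0.073 to 0.17 for Hp, from -0.064 to 0.19 for Hpx and from -0.042 to 0.20 for Crp. Between the fractions of WT mice they ran from -0.52 to 0.60 for Saa1, from -0.31 to 1.16 for Saa2, from -0.36 to 0.45 for Saa3, from -0.30 to 0.055 for Saa4, from -0.12 to 0.30 for Orm2 and from -0.40 to 0.51 for Lcn2. Between the fractions of KO mice they ran from -0.31 to 0.16 for Saa1, from -0.49 to 0.18 for Saa2, from -0.65 to 0.29 for Saa3, from -0.26 to 0.090 for Saa4, from -0.47 to 0.19 for Orm2, from -0.32 to 0.16 for Lcn2, from -0.29 to 0.021 for Hp and from -0.21 to 0.038 for Crp. Between the fractions over both genotypes they ran from -0.33 to 0.23 for Saa1, from -0.27 to 0.47 for Saa2, from -0.31 to 0.16 for Saa3, from -0.19 to 0.14 for Orm2 and from -0.23 to 0.23 for Lcn2. For the interaction they ran from -0.74 to 0.38 for Saa1, from -1.38 to 0.094 for Saa2, from -0.68 to 0.26 for Saa3, from -0.13 to 0.24 for Saa4, from -0.17 to 0.18 for Orm1, from -0.56 to 0.15 for Orm2, from -0.57 to 0.35 for Lcn2, from -0.13 to 0.18 for Hp, from -0.12 to 0.24 for Hpx and from -0.033 to 0.23 for Crp.

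With 3 mice a group, differences of Saa1, Saa2, Saa3 and Lcn2 between genotypes are known only within wide 95% intervals, such as -1.58 to 0.83 for Saa1 in low-fat libraries.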
